A study of Homo sapiens with 6 samples.

Results

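Translation initiation factor genes were examined in A2780 cells, a human ovarian cancer line, with and without a short hairpin against USP39. The genes were all symbols of the deposited table that begin with EIF1 to EIF6, without the eIF2 kinases, whose symbols begin with EIF2AK. They were 47 of 16571 gene symbols, or 63 of 21368 transcripts, and made up 1.37% to 1.44% of each library's counts. Counts per gene were available for 3 libraries with pGIPZ-NC, the control vector, and for 3 libraries with shUSP39. Both groups had been infected with lentivirus, the labels describe the line as serous, and they do not say which hairpin sequence a shUSP39 library carried. USP39, a protein of the spliceosome, was not analysed here, and no check of the labels on the target was made. The labels do not say how the cultures were kept apart, and p-values measure only the spread between these libraries.

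Translation begins when eIF2 brings the initiator tRNA to the small ribosomal subunit, which eIF1, eIF1A, eIF3 and eIF5 help to prepare. The eIF4 group recruits this complex to the capped end of a messenger RNA, which is then scanned for the start codon, and eIF5B joins the large subunit. The process is controlled at eIF2, which eIF2B recharges with GTP, and at the cap-binding protein eIF4E, which the 4E-binding proteins hold back.

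The libraries held 28294819 to 32939264 counts each. A count was found for 12662 to 12819 genes in the pGIPZ-NC libraries and in shUSP39 replicate 1, but for 15446 and 14890 genes in shUSP39 replicates 2 and 3. Results that change without these 2 libraries are named below. Of the markers listed for an ovarian carcinoma line, 8 of 9 were in the table. VIM, an intermediate filament gene, had 10721 to 11364 CPM (counts scaled to a common library size with TMM factors). KRT18, a keratin gene, was at 20.8 to 23.9 CPM in pGIPZ-NC and 30.45 to 36.3 CPM in shUSP39. PAX8, EPCAM and CDH1 were each at or below 0.203 CPM. KRT8 was at 0.878, 1.14 and 0.921 CPM in pGIPZ-NC and at 0.0937, 0 and 0 CPM in shUSP39 replicates 1 to 3. MUC16 reached 4.90 and 2.40 CPM in shUSP39 replicates 2 and 3 against at most 0.187 CPM elsewhere. A list of 4 fibroblast genes, carried mostly by COL1A2, summed to 1133 to 1198 CPM in pGIPZ-NC and 454 to 474 CPM in shUSP39. Within it LUM went from a mean of 4.73 to 0.380 CPM and DCN from 1.13 to 0.0785 CPM. The groups overlapped in COL1A1. Lists of 3 leukocyte and 3 endothelial genes summed to at most 0.490 and 1.73 CPM. The part of these differences in the results below was not tested.

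To ask how the initiation factors moved in knockdown cells, both groups were compared with edgeR's quasi-likelihood test and Benjamini-Hochberg adjustment over 10695 genes. Enough counts for the test were found for 44 of the 47 genes. The other 3 had few counts in any library, with 1 to 8 for the eIF3 subunit gene EIF3K, 0 to 2 for EIF4E1B and 0 to 8 for EIF4E3, which are both relatives of the cap-binding gene EIF4E. At an adjusted p under 0.05, 7 of 44 genes (15.9%) were higher in shUSP39, against 16.1% of all genes tested. The lower genes were 10 of 44 (22.7%), against 17.5% of all genes tested. The lower genes were EIF2D, EIF2B2, EIF2B5, EIF3L, EIF4EBP2, EIF4A2, EIF3M, EIF2S1, EIF3A and EIF3D, and the higher ones EIF4G2, EIF4H, EIF5A2, EIF4EBP1, EIF5, EIF5A and EIF1. Together 17 of 44 passed in either direction, against 33.6% of all genes tested, and 27 did not. The higher genes numbered 2 without pGIPZ-NC replicate 3, beside 1576 of all 11113 genes tested then. They numbered 4 without shUSP39 replicate 3, beside 1495 of 10984. With all libraries 1726 of 10695 were higher. Without shUSP39 replicates 2 and 3 together, fewer members and fewer of all genes passed.

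The changes were small. The log2 fold change lay between -0.70 and 0.98, with a median of -0.04 against 0.01 over all genes tested. No member passed with a change beyond 2-fold, against 6.81% of all genes tested. This count was also 0 with the DESeq2 Wald test, with limma-voom and at an unadjusted p under 0.05. It was 1 without shUSP39 replicate 1 (EIF4G3) and 1 without shUSP39 replicate 2 (EIF3C). The median absolute log2 fold change was 0.14 for the initiation factors and 0.22 for all genes. Among genes with a mean of at least 1000 counts it was 0.117 and 0.143. The median log2 fold change at that depth was -0.042 for the initiation factors and -0.045 for all genes. The 3 shUSP39 libraries were all above the controls in 7 genes (15.9%) and all below them in 13 (29.5%), against 21.7% and 22.5% of all genes tested.

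**Figure D1:**
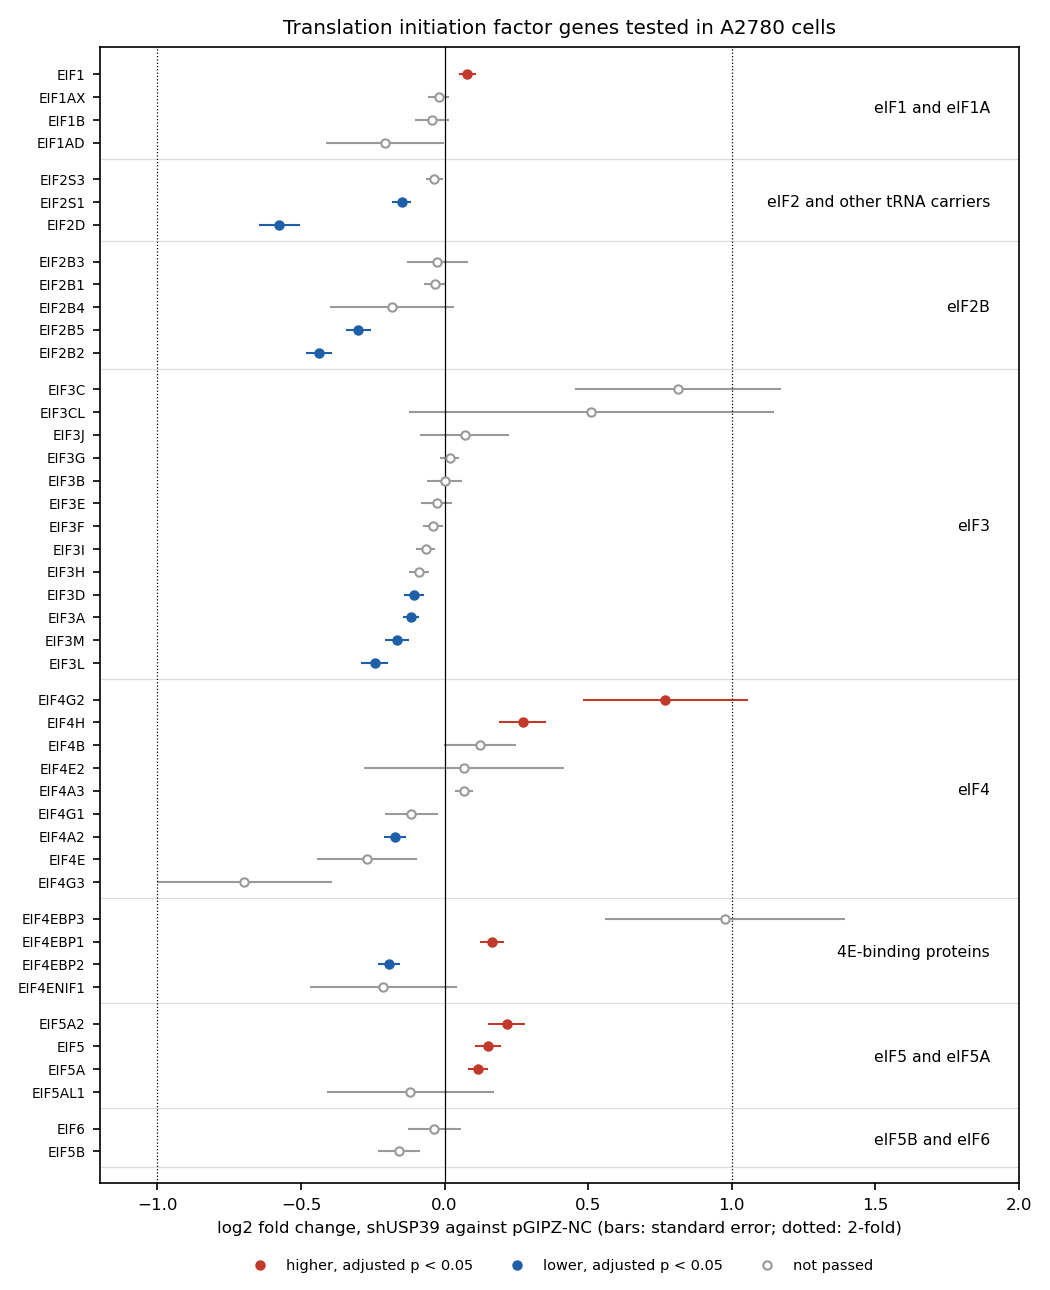
Log2 fold change (shUSP39 over pGIPZ-NC, bars: standard error) of the 44 tested initiation factor genes, grouped by role and coloured by the edgeR call at an adjusted p under 0.05. All called members of the eIF2, eIF2B and eIF3 groups lie left of 0 and all called members of the eIF5 and eIF5A group right of it, while the widest bars belong to genes with few counts.

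How many genes passed also followed the depth. Among 28 members with a mean of at least 1000 counts, 6 were higher (21.4%) and 10 lower (35.7%), against 19.7% and 33.1% of the 3779 genes of that depth. In that depth class 1.64% of all genes passed beyond 2-fold, and no member did. Among the 16 members with fewer counts, 1 was higher, EIF4G2, and the median standard error of the log2 fold change was 0.24, against 0.04 in the deeper ones. A small change in EIF4E, EIF4B, EIF1AD, EIF2B4 or EIF4ENIF1 was therefore not detectable at this depth. The median standard error was 0.04 in the 21 tested members with 1 RefSeq transcript and 0.11 in the 23 with several. Reads shared between transcripts may be missing, so few counts need not mean low expression, which was not tested.

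**Figure D2:**
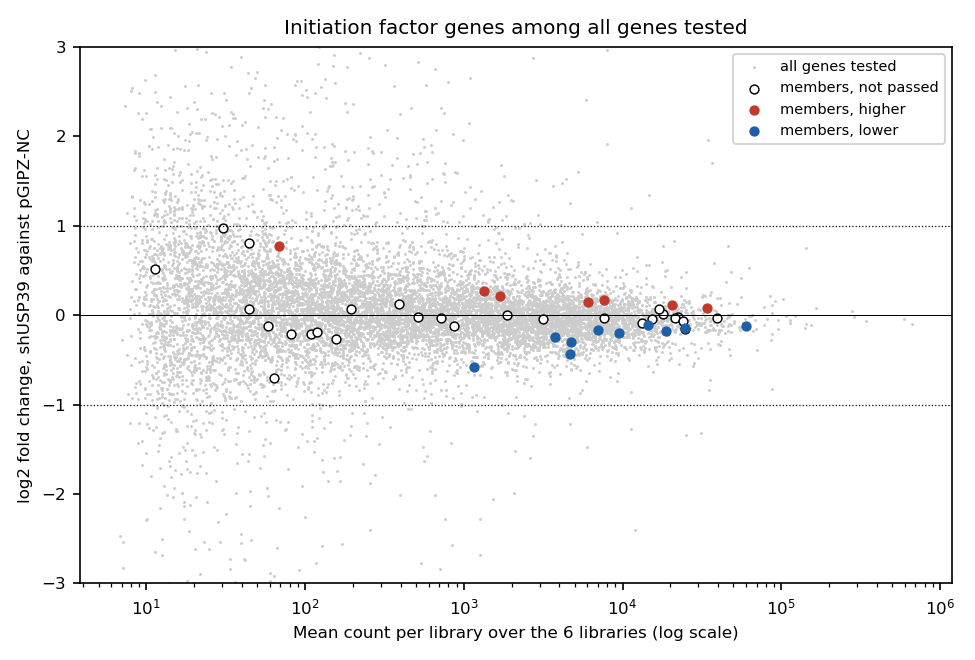
Log2 fold change (shUSP39 over pGIPZ-NC) against mean expression (log scale) for all genes tested, with the initiation factor genes marked. The members lie near the line of no change, none of those called beyond 2-fold, and 129 genes with a log2 fold change past 3 in either direction lie outside the plotted range.

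The group that delivers the initiator tRNA held the largest fall that passed. EIF2D (chromosome 1, 206744620 to 206785818, minus strand, GRCh37, 15 exons) encodes a factor that places tRNA on the small subunit without GTP and takes part in recycling. It measured 46.6, 43.3 and 45.6 CPM in pGIPZ-NC replicates 1 to 3 and 29.4, 30.6 and 30.9 CPM in shUSP39. The groups were far apart, and the fall was 32.9% (log2 fold change -0.58, SE 0.07, adjusted p = 4.23e-07). EIF2S1 (chromosome 14, 67827045 to 67853233, plus strand, 8 exons) encodes the alpha subunit of eIF2, on which the stress kinases act. It measured 856, 837 and 831 CPM in pGIPZ-NC and 791, 744 and 741 CPM in shUSP39, a fall of 9.80% with no overlap (log2 fold change -0.15, SE 0.03, adjusted p = 0.000752). With shUSP39 replicate 1 as the sole knockdown library, EIF2S1 was at -0.09 with an adjusted p of 0.196. EIF2S3, the gamma subunit gene, measured 1331, 1259 and 1269 CPM in pGIPZ-NC and 1278, 1264 and 1224 CPM in shUSP39. Its groups overlapped and it did not pass (adjusted p = 0.412). The beta subunit gene was not analysed here.

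eIF2B, the exchange factor that reloads eIF2 with GTP, has 5 subunits, and all 5 were tested. EIF2B2 and EIF2B5 fell (40%) and the other 3 did not pass. Of all genes tested 17.5% were lower, and of those with a mean of at least 1000 counts 33.1%. EIF2B2 (chromosome 14, 75469624 to 75479069, plus strand, 8 exons) encodes the beta subunit. It measured 170.5, 175 and 179 CPM in pGIPZ-NC and 136, 125.5 and 126 CPM in shUSP39, a fall of 26.2% (log2 fold change -0.44, SE 0.05, adjusted p = 1.9e-08). EIF2B5 (chromosome 3, 183852826 to 183863915, plus strand, 16 exons) encodes the epsilon subunit, which holds the catalytic domain. It measured 166, 171 and 174 CPM in pGIPZ-NC and 139, 139 and 138 CPM in shUSP39, a fall of 18.8% (log2 fold change -0.30, SE 0.04, adjusted p = 3.47e-06). Neither gene overlapped between groups. EIF2B1, the alpha subunit gene, was at 252, 250.0 and 253 CPM in pGIPZ-NC and 243, 246 and 247 CPM in shUSP39. These libraries did not overlap either, but the difference of -0.03 (log2) did not pass (SE 0.04, adjusted p = 0.523). EIF2B3 and EIF2B4, at a mean of 16.9 and 4.10 CPM in pGIPZ-NC, had log2 fold changes of -0.03 and -0.18 and overlapping groups.

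Because the subunits are counted in the same library, their ratio does not depend on the scaling. The EIF2B2 to EIF2B1 ratio of counts was 0.677, 0.700 and 0.707 in pGIPZ-NC and 0.557, 0.510 and 0.509 in shUSP39. The mean ratio fell from 0.695 ± 0.0160 to 0.525 ± 0.0271 (SD, n = 3), or to 0.756 of its control value. The EIF2B5 to EIF2B1 ratio fell in the same way, from 0.678 ± 0.0167 to 0.564 ± 0.00685. The pairs were chosen after their values were seen, so the ratios are a description with no test, and they show unequal change of subunits rather than which of them changed.

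eIF3 is the largest initiation factor and the scaffold on which the other factors meet the small subunit. Of its 14 genes in the table, 13 were tested, 4 fell (30.8%) and 9 did not pass, with a median log2 fold change of -0.04. Of all genes tested 17.5% were lower. The 4 that fell each had a mean of at least 1000 counts, a depth at which 33.1% of all genes were lower. EIF3L (chromosome 22, 38244875 to 38285414, plus strand, 13 exons) had the largest fall. It measured 135, 127 and 136 CPM in pGIPZ-NC and 115, 112 and 110.0 CPM in shUSP39, a fall of 15.6% (log2 fold change -0.24, SE 0.05, adjusted p = 0.000226). EIF3M (chromosome 11, 32605344 to 32627810, plus strand, 11 exons) measured 250.4, 236 and 233 CPM in pGIPZ-NC and 214, 210.0 and 218 CPM in shUSP39, a fall of 10.8% (SE of log2 fold change 0.04, adjusted p = 0.00215). In both genes each shUSP39 library lay below each pGIPZ-NC library.

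EIF3A (chromosome 10, 120793182 to 120840329, minus strand, 22 exons) encodes the largest subunit. It measured 2059, 2017 and 1980 CPM in pGIPZ-NC and 1912, 1844 and 1830 CPM in shUSP39, a fall of 7.75% with no overlap (log2 fold change -0.12, SE 0.03, adjusted p = 0.00199). EIF3D (chromosome 22, 36906902 to 36925231, minus strand, 15 exons), whose product can itself bind a cap, measured 485, 496 and 484 CPM in pGIPZ-NC and 441, 469 and 449 CPM in shUSP39, a fall of 7.16% (log2 fold change -0.11, adjusted p = 0.0175). EIF3D did not pass under upper-quartile scaling (adjusted p = 0.176), with library size alone (0.0716) or without pGIPZ-NC replicate 2, shUSP39 replicate 1 or shUSP39 replicate 3 (0.0768, 0.0633 and 0.0586). Without shUSP39 replicates 2 and 3 together, EIF3A (0.199) and EIF3M (0.0515) also did not pass.

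The other 9 tested genes of eIF3 did not pass. EIF3H was lower in all shUSP39 libraries, at 420, 411 and 416 CPM against 458, 441 and 427 CPM, at -0.09 on the log2 scale (adjusted p = 0.0554). It passed with limma-voom (0.0454) and without pGIPZ-NC replicate 3 (0.0245). EIF3B, EIF3E, EIF3F, EIF3G, EIF3I and EIF3J had overlapping groups and log2 fold changes from -0.07 to 0.07. EIF3C and EIF3CL are near-identical copies on chromosome 16, and reads cannot be assigned to one of them with certainty. EIF3C was at 0.690, 1.14 and 1.31 CPM in pGIPZ-NC and 2.50, 1.24 and 1.76 CPM in shUSP39, on 22 to 80 counts, and did not pass (adjusted p = 0.0844), though it did without shUSP39 replicate 2 (0.0424) and without shUSP39 replicates 2 and 3 together (log2 fold change 1.26, adjusted p = 0.04995). EIF3CL was at 0.125, 0.369 and 0.425 CPM in pGIPZ-NC and 0.281, 0.490 and 0.541 CPM in shUSP39, on 4 to 16 counts. Both groups of values overlapped. These low counts limit what can be read from either copy.

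**Figure D3:**
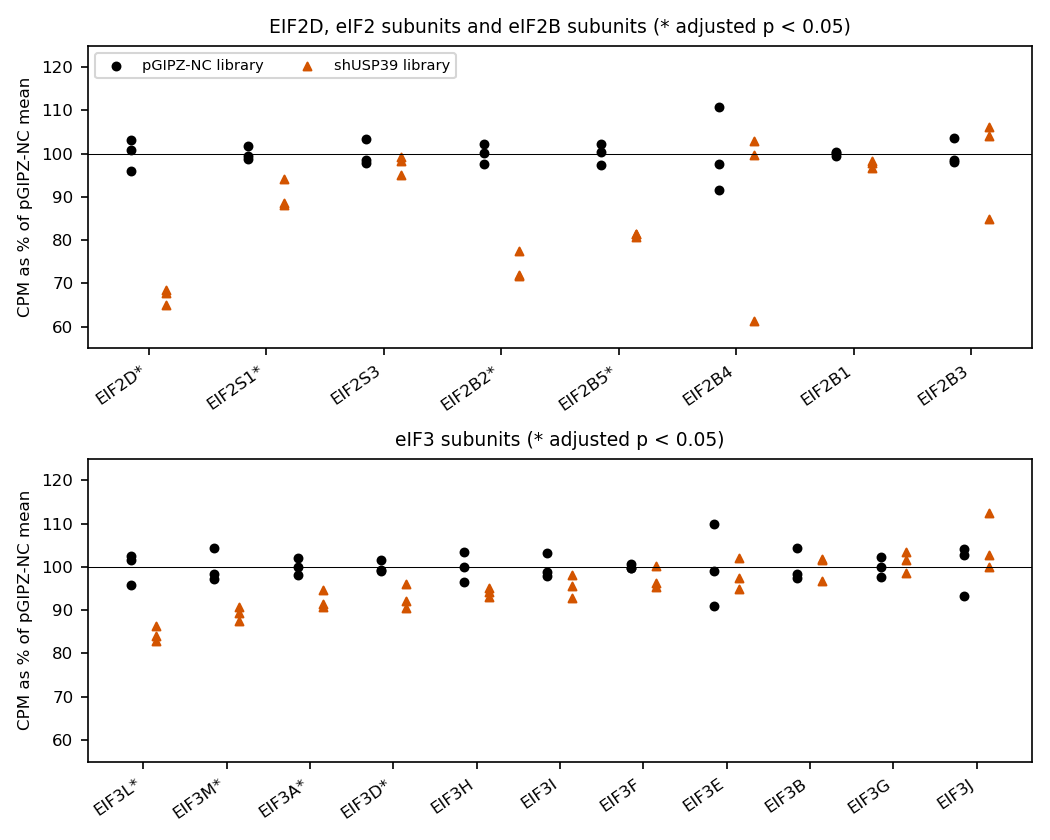
CPM of each library as a percent of the pGIPZ-NC mean (axis not from 0) for EIF2D, the eIF2 and eIF2B subunits and the eIF3 subunits with at least 100 counts on average, circles for pGIPZ-NC and triangles for shUSP39. In shUSP39, EIF2D lies at 65.1 to 68.4%, EIF2B2 at 71.8 to 77.6%, EIF2B5 at 80.7 to 81.5% and EIF2B1 at 96.8 to 98.2% of the control mean, and the lowest single point is shUSP39 replicate 2 in EIF2B4, at 61.3%, whose other shUSP39 points lie at 99.8 and 103%.

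The eIF4 group binds the cap, unwinds the leader and bridges to the poly(A) tail. Of its 11 genes, 9 were tested, of which EIF4H and EIF4G2 rose (22.2%) and EIF4A2 fell (11.1%). Over all genes tested, 16.1% were higher and 17.5% lower. EIF4A2 (chromosome 3, 186500994 to 186507686, plus strand, 11 exons) encodes a helicase that unwinds leaders. It measured 676, 636 and 618 CPM in pGIPZ-NC and 597, 555 and 561 CPM in shUSP39, a fall of 11.3% with no overlap (log2 fold change -0.17, SE 0.04, adjusted p = 0.000583). With shUSP39 replicate 1 as the sole knockdown library it did not pass (0.147). EIF4A3, the paralog in the exon junction complex that marks spliced messenger RNA, was at 541, 541 and 527 CPM in pGIPZ-NC and 563, 564 and 559 CPM in shUSP39. All of its shUSP39 libraries lay above the control libraries, but its log2 fold change of 0.07 did not pass (SE 0.03, adjusted p = 0.115). It passed under upper-quartile scaling (adjusted p = 0.00735) and with library size alone (0.0244). The ratio of EIF4A3 to EIF4A2 counts, a pair chosen after its values were seen, was 0.834 ± 0.0295 (SD, n = 3) in the control libraries and 0.985 ± 0.0378 in the knockdown libraries. EIF4A1 was not analysed here.

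EIF4H (chromosome 7, 73588561 to 73611452, plus strand, 7 exons) encodes a cofactor of the helicase. It measured 38.0, 43.5 and 36.2 CPM in pGIPZ-NC and 41.7, 51.4 and 49.1 CPM in shUSP39, with shUSP39 replicate 1 below pGIPZ-NC replicate 2. The rise of 20.8% passed (log2 fold change 0.27, SE 0.08, adjusted p = 0.0116), but not without pGIPZ-NC replicate 3 (0.0890) or shUSP39 replicate 2 (0.0990), nor without shUSP39 replicates 2 and 3 together (0.653). EIF4B, the other cofactor, had overlapping groups and a log2 fold change of 0.12 (adjusted p = 0.493).

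The scaffold genes of the eIF4 group had few counts. EIF4G1, the main scaffold, was at 26.7, 27.2 and 34.6 CPM in pGIPZ-NC and 27.2, 27.4 and 27.0 CPM in shUSP39. Without pGIPZ-NC replicate 3, the 1 library that stood high, its log2 fold change went from -0.12 to 0.01. EIF4G2, a relative that lacks the eIF4E binding part, was at 1.41, 2.09 and 1.42 CPM in pGIPZ-NC and 1.97, 2.78 and 3.68 CPM in shUSP39, on 40 to 109 counts. Its groups overlapped, its log2 fold change was 0.77 (SE 0.29, adjusted p = 0.0404), and it did not pass with the DESeq2 Wald test (adjusted p = 0.0510), with limma-voom (0.0602) or without pGIPZ-NC replicate 1 or 3 or shUSP39 replicate 2 or 3 (0.0843 to 0.252). Without shUSP39 replicates 2 and 3 together it was at 0.26 on the log2 scale (adjusted p = 0.750). EIF4G3 was at 2.63, 1.94 and 3.12 CPM in pGIPZ-NC and 2.25, 1.01 and 1.45 CPM in shUSP39, with overlapping groups, and did not pass (log2 fold change -0.70, SE 0.31, adjusted p = 0.0825). Without shUSP39 replicate 1 it passed (adjusted p = 0.0161).

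EIF4E itself, the cap-binding protein gene, was at 5.58, 5.76 and 5.31 CPM in pGIPZ-NC and 4.31, 4.35 and 5.17 CPM in shUSP39. All shUSP39 libraries were lower, yet on 133 to 187 counts the difference of -0.27 (log2, SE 0.17) did not pass (adjusted p = 0.255). EIF4E2, a cap-binding paralog linked with repression, was at 1.41, 0.924 and 1.948 CPM in pGIPZ-NC and 1.16, 1.86 and 1.45 CPM in shUSP39, with no direction that held when a library was left out.

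The 4E-binding proteins compete with the scaffold for eIF4E, and their 2 well-counted genes moved in opposite directions. EIF4EBP1 measured 223, 248 and 228 CPM in pGIPZ-NC and 261, 260.3 and 263 CPM in shUSP39, a rise of 12.3% (log2 fold change 0.17, SE 0.04, adjusted p = 0.00245). EIF4EBP2 (chromosome 10, 72163901 to 72188374, plus strand, 3 exons) measured 343, 328 and 321 CPM in pGIPZ-NC and 301, 287 and 279 CPM in shUSP39, a fall of 12.6% (log2 fold change -0.19, SE 0.04, adjusted p = 0.000268). In neither gene did the groups overlap. The ratio of EIF4EBP1 to EIF4EBP2 counts was 0.650, 0.755 and 0.710 in the pGIPZ-NC libraries and 0.869, 0.906 and 0.942 in the shUSP39 libraries. It rose to 1.28 of its control mean, described without a test since the pair was chosen after its values were seen. With shUSP39 replicate 1 alone, EIF4EBP2 did not pass (adjusted p = 0.0824).

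EIF4EBP3 had the highest fold change of all members and did not pass. It was at 0.659, 0.462 and 0.886 CPM in pGIPZ-NC and 1.19, 1.67 and 1.08 CPM in shUSP39, on 15 to 51 counts, without overlap (log2 fold change 0.98, SE 0.42, adjusted p = 0.0752). It shares sequence with a readthrough transcript of its neighbour ANKHD1, so its counts are uncertain, and it passed where at least 10 counts were required in each library (adjusted p = 0.0368). EIF4ENIF1, the gene of a protein that carries eIF4E into the nucleus, had a log2 fold change of -0.21 and overlapping groups.

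Of the 4 tested genes of eIF5 and eIF5A, 3 rose (75%) and 1 did not pass. Of all genes tested 16.1% were higher, and of those with a mean of at least 1000 counts 19.7%. EIF5 (chromosome 14, 103799881 to 103811362, plus strand, 12 exons) encodes the protein that triggers GTP hydrolysis by eIF2. It measured 177, 191 and 188 CPM in pGIPZ-NC and 196, 206 and 217 CPM in shUSP39, a rise of 11.1% with no overlap (log2 fold change 0.15, SE 0.04, adjusted p = 0.00949). It did not pass without pGIPZ-NC replicate 1 (0.0611) or shUSP39 replicate 3 (0.0791), nor without shUSP39 replicates 2 and 3 together (0.425). EIF5A (chromosome 17, 7210318 to 7215782, plus strand, 6 exons) encodes a hypusine-carrying protein that helps ribosomes through difficult stretches and termination. It measured 637, 648 and 625 CPM in pGIPZ-NC and 716, 658 and 699 CPM in shUSP39, a rise of 8.53% (log2 fold change 0.12, SE 0.03, adjusted p = 0.00917).

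EIF5A2 (chromosome 3, 170606207 to 170626433, minus strand, 5 exons), the paralog with a narrower range of tissues, rose too. It measured 51.9, 51.9 and 47.4 CPM in pGIPZ-NC and 60.4, 56.8 and 58.4 CPM in shUSP39, a rise of 16.2% (log2 fold change 0.22, SE 0.06, adjusted p = 0.0106). Neither EIF5A gene overlapped between groups, and neither passed without pGIPZ-NC replicate 3 (0.0700 for EIF5A and 0.0729 for EIF5A2). EIF5A also missed the threshold without shUSP39 replicate 1 (0.0705). EIF5AL1, a near copy of EIF5A with 43 to 77 counts, was at -0.12 on the log2 scale and overlapped.

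EIF1 (chromosome 17, 39845137 to 39848920, plus strand, 4 exons), the gatekeeper of start codon choice, had the smallest change that passed. It measured 1097, 1068 and 1066 CPM in pGIPZ-NC and 1157, 1131 and 1125 CPM in shUSP39, a rise of 5.62% with no overlap (log2 fold change 0.08, SE 0.03, adjusted p = 0.0400). EIF1 did not pass with no filter on low counts (0.100) or without any 1 of pGIPZ-NC replicates 2 and 3 and shUSP39 replicates 1, 2 and 3 (0.0553 to 0.174), nor without shUSP39 replicates 2 and 3 together (0.0941). EIF1B, its paralog, was at 108, 102 and 99.6 CPM in pGIPZ-NC and 109, 91.0 and 99.6 CPM in shUSP39, with overlapping groups. EIF1AX, the scanning factor gene, and EIF1AD had log2 fold changes of -0.02 and -0.21 and did not pass.

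EIF5B, whose product joins the subunits, was at 932, 847 and 774 CPM in pGIPZ-NC and 819, 751 and 716 CPM in shUSP39. The groups overlapped and the spread within them was wide for a gene with 21183 or more counts per library, and the gene did not pass (log2 fold change -0.16, SE 0.07, adjusted p = 0.140). EIF5B passed with no filter (0.000357), without pGIPZ-NC replicate 3 (0.00224) and without shUSP39 replicate 1 (0.0146). EIF6, the gene of a factor that keeps the large subunit apart, had a log2 fold change of -0.04.

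**Figure D4:**
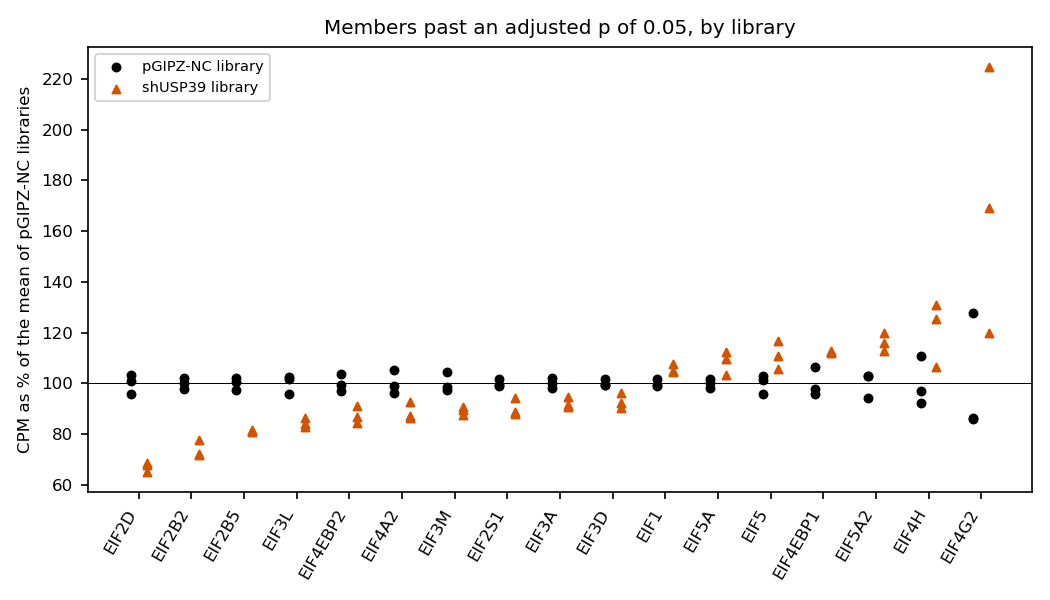
CPM per library of the 17 initiation factor genes past an adjusted p of 0.05, as a percent of the mean of the pGIPZ-NC libraries. Genes run from the deepest fall, EIF2D, to EIF4G2, and the groups overlap in EIF4H and EIF4G2 only.

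Counts were also tested per transcript, since the knocked-down protein acts in splicing and a gene total can hide a shift between transcripts. Of the 63 transcripts 55 were tested, 7 were higher and 10 lower at an adjusted p under 0.05, against 14.2% and 15.1% of all 12553 transcripts tested. Higher transcripts numbered 3 where replicate 3 of either group was dropped, and 4 where pGIPZ-NC replicate 1 or shUSP39 replicate 2 was dropped. Shares over all transcripts at these settings are not given here. Transcript usage could be tested in 8 of the genes, and 0 passed with edgeR's diffSpliceDGE, against 3.69% of 1628 genes. Before adjustment, edgeR gave EIF2B3 a p of 0.0312 and EIF5A a p of 0.0333, the 2 of the 8 under 0.05.

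In EIF5A the rise was carried by NM_001970.4, whose share of the gene's counts was 95.3% ± 0.110 (SD, n = 3) in the control libraries and 95.7% ± 0.192 in the knockdown libraries. NM_001970.4 measured 609, 615 and 595 CPM in pGIPZ-NC and 685, 631 and 669 CPM in shUSP39 (log2 fold change 0.13, adjusted p = 0.00644). NM_001143760.1 of the same gene held 0.228% ± 0.0266 and 0.120% ± 0.0271 on 19 to 48 counts. In EIF5 the main transcript, NM_001969.4, held 97.9% and 98.5%, so the gene's rise was that of this transcript (log2 fold change 0.16, adjusted p = 0.00656). In EIF2B3, NM_001166588.2 held 5.06% ± 2.34 in pGIPZ-NC and 9.19% ± 3.04 in shUSP39. Only transcripts listed in the table could be compared, and 37 of the 47 genes had a single one there, including 16 that have several in RefSeq. The called genes EIF2D, EIF3L, EIF3M, EIF4G2 and EIF4H are among these 16, so their changes are those of a single listed transcript.

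Many genes of the translation machinery start with a C followed by pyrimidines, the terminal oligopyrimidine (TOP) motif, through which the TOR kinase and LARP1 control their translation. Windows of 30 bases around the annotated start, 10 before it and 20 from it, were read from RefSeq (GRCh38.p14) for 40 of the 47 genes. The called genes EIF3A, EIF3L and EIF4EBP1 had no entry, so their starts were not read. EIF3CL, EIF3E, EIF3G and EIF3H had none either. A TOP start was taken as C followed by at least 4 of C or T on the gene's own strand. It was found in 8 of the 40, which are EIF2D, EIF2S3, EIF3D, EIF3F, EIF3K, EIF3M, EIF4A2 and EIF4B. The share over all genes of the table with an entry was 6.46%, or 811 of 12555. The 4 lower genes with a TOP start are shown first, with the run in capitals, at chr1:206612446-206612475 (minus strand), chr22:36529147-36529176 (minus), chr11:32583821-32583850 (plus) and chr3:186783567-186783596 (plus).
EIF2D: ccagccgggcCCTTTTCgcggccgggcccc
EIF3D: cgcatgtttcCTCTTTTCCTggtttctcaa
EIF3M: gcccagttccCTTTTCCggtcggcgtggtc
EIF4A2: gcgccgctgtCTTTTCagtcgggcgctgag
The TOP genes EIF2S3 (chrX:24054946-24054975, plus), EIF3F (chr11:7987327-7987356, plus) and EIF4B (chr12:53006446-53006475, plus) did not pass, and are shown because their starts look alike.
EIF2S3: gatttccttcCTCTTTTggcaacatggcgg
EIF3F: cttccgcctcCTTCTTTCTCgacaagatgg
EIF4B: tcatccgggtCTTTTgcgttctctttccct
The other falls and the rises are represented by the eIF2B genes EIF2B2 (chr14:75002911-75002940, plus) and EIF2B5 (chr3:184135348-184135377, plus) and by EIF1 (chr17:41688875-41688904, plus), none of which starts with a TOP run.
EIF2B2: cgcccgccccggaagtgcaaactgtgtggt
EIF2B5: cagcttccttgcggaagtggtgaccgtgag
EIF1: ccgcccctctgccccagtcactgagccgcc

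Of the 7 tested genes with a TOP start, 4 were lower and 0 higher, with a median log2 fold change of -0.11. All of them but EIF4B had a mean of at least 1000 counts, a depth at which 33.1% of all genes were lower. At an unadjusted p under 0.05 the same count of higher TOP genes was 0. Over all 611 tested genes with a TOP start, 20.5% were lower and 11.9% higher. Over the 30 tested members with another start, 4 were lower and 6 higher. Over all 7707 tested genes with an entry and another start, 17.3% were lower and 15.6% higher. EIF2D, EIF3D, EIF3M and EIF4A2 thus fell while EIF2S3, EIF3F and EIF4B, with runs of 5 to 10 pyrimidines, did not pass, and the 2 eIF2B genes fell without the motif. The E-box CACGTG, which reads the same on both strands, lay within 250 bases before to 50 after the start in 11 of the 40 genes (27.5%), against 11.2% of all genes with an entry. Of the 10 tested genes with an E-box, EIF5A2 and EIF4H were higher and the rest did not pass, where 15.1% of all 1044 tested genes with an E-box were higher and 15.3% lower. A match to a motif is a description of these letters and not of a factor's binding.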

How the data were processed

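RNA was extracted with Trizol and libraries followed Illumina protocols, per the labels. The authors deposited raw read counts per RefSeq transcript, 1 column per library. The submitters' processing notes name HISAT2, Cufflinks and hg19 without versions, and the counter and its use of strand are not given in the sources used here. Deposited columns of group means, fold, p-value and q-value hold the authors' own comparison and were not used.

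Counts were summed per symbol. All 6 libraries entered 1 fit of edgeR 4.0.16 (R 4.3.3) with filterByExpr, TMM scaling, a robust quasi-likelihood fit on group alone, adjusted over all genes tested (Benjamini-Hochberg, 0.05). The standard error is the absolute log2 fold change over the root of F. Transcripts were tested in the same way and usage with diffSpliceDGE. Alternatives were other scalings and filters, DESeq2 1.42.0, limma-voom (limma 3.58.1), a replicate block, left-out libraries, the highest transcript and genes with 1 transcript. Fits were tested on simulated data. Coordinates and exon numbers came from GENCODE mapped to GRCh37, start windows from RefSeq (GRCh38.p14), with matches for 47 and 40 of 47 genes.

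Where a gene has several transcripts, shared reads may be missing from the counts, so levels were not compared between genes. Within groups, libraries differed by more than counting noise (a chi-square of 4.74 or more per degree of freedom) and were counted separately. Members and lists were chosen with earlier results of these data known. Values per library are given for members past the adjusted p and 2-fold, for the 8 largest rises and 8 largest falls past it with at least 5 CPM, and for paralogs. Others named were chosen after their values were seen. In other lists up to 3 genes that passed are named, with some that did not.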

Additional observations from a re-analysis of the deposited data

How the results depend on the processing

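EIF2B2, EIF2B5, EIF2D, EIF3L and EIF4EBP1 passed under all 17 alternatives, with log2 fold changes of -0.48 to -0.37, -0.32 to -0.26, -0.62 to -0.53, -0.28 to -0.20 and 0.13 to 0.21. Under the alternatives 435 values of single genes were read, for the called genes and the paralog groups only. Of these, 94 of those for higher genes and 160 of those for lower genes held direction and call. The call was lost without turning in 23 and 10. Depth limits the members with few counts, and reads shared between transcripts may be missing from the counts.

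The median log2 fold change of the members turned to 0.00597 under upper-quartile scaling, which moved the median of all genes by 0.05, and was -0.0129 with library size only. It lay between -0.0661 (without shUSP39 replicate 1) and -0.0329 when 1 library was left out. The number of higher members was then 2 to 6, lowest without pGIPZ-NC replicate 3 and 4 without shUSP39 replicate 3, and that of lower members 9 to 12. Of all 10956 to 11113 genes tested in these fits, 1475 to 1743 were higher and 1620 to 1828 lower. Higher member transcripts numbered 3 to 6, lowest without pGIPZ-NC replicate 3 and shUSP39 replicate 3, when 1 library was left out. The matching shares over all transcripts are not given here. Members beyond 2-fold numbered 0 to 1, the 1 being EIF4G3 without shUSP39 replicate 1 and EIF3C without shUSP39 replicate 2, and 1 at a limit of 1.5-fold (EIF4G2). Without shUSP39 replicates 2 and 3 together, which leaves 1 library assumed to vary like the others, fewer members and fewer of all genes passed. EIF3C then had a log2 fold change of 1.26.

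Single genes that changed sign did not pass in either case. They included EIF1AX, EIF2B1, EIF2B3, EIF2B4, EIF2S3, EIF3B, EIF3E, EIF3F, EIF3G, EIF4B, EIF4ENIF1, EIF5AL1 and EIF6, whose ranges are not given. Those in the paralog groups follow. EIF1B went to 0.000575 under upper-quartile scaling, 0.0188 without shUSP39 replicate 2 (-0.118 to 0.0188 with 1 library left out) and 0.0859 without replicates 2 and 3. EIF4E2 ranged from -0.175 to 0.345 with 1 library left out, below 0 where replicate 2 of either group was dropped, and was -0.297 without shUSP39 replicates 2 and 3. EIF4G1 ranged from -0.184 to 0.00563, the latter without pGIPZ-NC replicate 3, and EIF3CL to -0.116 without shUSP39 replicates 2 and 3. The causes were not tested.

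Outside the family, DENR lost its call, leaving 0 of the scanning and recycling genes lower, under upper-quartile scaling, library size only, at least 10 counts, the DESeq2 Wald test, the highest transcript, genes with 1 transcript, without shUSP39 replicates 2 and 3, and without pGIPZ-NC replicates 1 or 3 or shUSP39 replicates 2 or 3 (0 to 1 when 1 library was left out). Higher elongation and release genes numbered 5 under upper-quartile scaling and 1 without shUSP39 replicates 2 and 3.

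With the replicate number as a block, 8 members were higher and 14 lower, beside 1904 higher and 2077 lower of all 10695 genes. The members gained were EIF5B (adjusted p = 1.65e-06), EIF3H (0.0140), EIF3I (0.0459), EIF4G3 (0.0472) and EIF4A3 (0.0479), and none lost its call. Deviations of libraries with the same number correlated at 0.0968, 0.0165 and 0.0279, and those with other numbers at -0.0644 to 0.0375. Not every library correlated best with its own number, so the numbers were not taken as pairs. These correlations over all genes do not exclude a pairing.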

Other observations

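Genes around the initiation factors were read from lists that do not overlap with them. Of 8 genes of the integrated stress response, through which eIF2 kinases slow initiation, 1 was higher and 1 lower at an adjusted p under 0.05 (edgeR, Benjamini-Hochberg). Over all genes tested, 16.1% were higher and 17.5% lower. PPP1R15A, the stress-induced regulator of eIF2 alpha dephosphorylation, rose from 60.4 ± 1.11 to 132 ± 5.16 CPM (SD, n = 3, log2 fold change 1.12, adjusted p = 2.63e-15). EIF2AK4, the kinase that senses uncharged tRNA, fell from 488 ± 2.63 to 385 ± 5.18 CPM (log2 fold change -0.34, adjusted p = 6.0e-09). EIF2AK1, EIF2AK2 and EIF2AK3 had log2 fold changes of 0.04, -0.20 and -0.01 and did not pass. EIF2AK2 had at most 27 counts in a library (SE 0.50), so a moderate change in it was not detectable. ATF4, the transcription factor whose translation rises when eIF2 is phosphorylated, had 19.2 ± 0.525 and 19.3 ± 0.445 CPM (adjusted p = 0.936), and DDIT3 had a log2 fold change of 0.56 (adjusted p = 0.112).

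Of 15 tested genes of cap, poly(A) and TOR control, 2 were higher and 5 lower. For this list and those below, the shares over all genes tested were 16.1% higher and 17.5% lower. Among all genes with a mean of at least 1000 counts they were 19.7% and 33.1%. MTOR, the kinase that acts on the 4E-binding proteins, fell from 350.1 ± 5.23 to 262 ± 5.83 CPM (log2 fold change -0.42, adjusted p = 5.89e-10), and MKNK2, a kinase of eIF4E, from 112 ± 7.85 to 89.8 ± 1.88 CPM (log2 fold change -0.33, adjusted p = 3.37e-05). PAIP2B, an inhibitor of the poly(A)-binding protein, rose from 3.84 ± 1.03 to 7.71 ± 0.552 CPM (log2 fold change 1.01, adjusted p = 8.32e-05). Of 11 genes of elongation and release, 3 were higher and 3 lower, with 5 higher under upper-quartile scaling and 1 without shUSP39 replicates 2 and 3. ETF1, the release factor that reads stop codons, rose from 7.30 ± 0.602 to 11.3 ± 1.66 CPM (log2 fold change 0.63, adjusted p = 0.000838). Its partner gene GSPT2 fell from 23.9 ± 1.42 to 16.0 ± 2.39 CPM (log2 fold change -0.58, adjusted p = 8.32e-05). GSPT1, the paralog of GSPT2, had 18.8 ± 0.478 and 17.8 ± 0.397 CPM and did not pass (log2 fold change -0.07, adjusted p = 0.601). EEF2K, the kinase of elongation factor 2, fell by 0.27 on the log2 scale (adjusted p = 3.62e-05). Of 3 tested genes of scanning and recycling, DENR fell by 0.12 on the log2 scale (adjusted p = 0.0453), a call lost without pGIPZ-NC replicate 1 or 3 or shUSP39 replicate 2 or 3. The 2 genes of mitochondrial initiation, MTIF2 and MTIF3, did not pass, on at most 32 and 79 counts. MTIF2 was at -0.88 on the log2 scale (SE 0.45), with all shUSP39 libraries below the controls. MTIF3 was at -0.33 (SE 0.36) with overlapping groups.

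Across the 44 tested initiation factor genes, the number of exons and the log2 fold change had a Spearman's rho of -0.17, and across the 28 with at least 1000 counts one of -0.38. These are descriptions across genes, which share libraries and differ in depth.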
